A study of Rattus norvegicus with 44 samples.

Results

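Older rats given ABT-263 were compared directly with older rats given dasatinib plus quercetin, 2 treatments of the kind called senolytic. The comparison takes in 11 rats of the ABT-263 group (AA) and 11 of the dasatinib plus quercetin group (ADQ), which is 22 of the 44 rats in the series, and the members were the rats that the authors' table of sample attributes lists under these treatments. All were male F344 rats, listed at 12 months of age and by the methods of the study 18 months old at tissue collection. Both groups received the drugs by oral gavage in the same lipid-based vehicle, on 5 days of each cycle with 2 weeks between cycles. By the methods of the study, 8 cycles over 6 months came before behavioral testing, and a final round followed it. Tissue was collected 2 weeks after that round. The doses were 12 mg/kg of ABT-263 for AA, and 1.2 mg/kg of dasatinib with 12 mg/kg of quercetin for ADQ. RNA came from the dissected dentate gyrus (DG), 1 poly(A)-selected library per rat. The other 22 rats, older rats given vehicle (AV, n = 12) and young rats given vehicle (YNG, n = 10), entered the fit for its estimate of spread and are given beside some values for scale.

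ABT-263, also known as navitoclax, is a mimetic of the BH3 stretch of pro-apoptotic proteins. It binds the survival proteins BCL-2, BCL-XL and BCL-W and frees the effectors BAX and BAK to open the outer membrane of the mitochondria. Dasatinib inhibits the kinases SRC and ABL and several ephrin and growth factor receptors, and quercetin is a plant flavonoid with many reported targets. The 2 treatments are used for the same purpose and act on different proteins, so the direct contrast asks where the DG transcriptome of the rats differed between them. In the DG, granule cells are the main neurons, and their immediate early genes, such as Fos, Arc and Egr2, are transcribed within minutes of synaptic activity.

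No gene separated the treatments once the number of genes was taken into account. Of 15598 genes tested with limma, 707 had an unadjusted p below 0.05, the threshold used in the study, and such genes are named as called below. These were 4.53% of all genes, 332 of them higher (2.13%) and 375 lower (2.4%) in AA, while the threshold alone passes 779.9 of 15598 genes if none differs. The smallest Benjamini-Hochberg adjusted p from limma was 0.981, and 0 genes had an adjusted p below 0.05. In 0 genes did the values of the 11 AA rats lie apart from those of the 11 ADQ rats. The called differences were small, with a median size of 0.28 on the log2 scale, and 19 of them were above 1. Every p given for a gene below is unadjusted.

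The intervals show how large a difference the data leave room for. The 95% interval of the difference lay within 1 log2 unit of 0, a 2-fold difference either way, for 14546 genes (93.3%), and within a 1.5-fold difference for 11893 (76.2%). On data simulated for this comparison, the fit called 80% of genes that differed by log2 0.5 and 94.5% of those that differed by log2 1, and it found 45.5% and 84% of them after adjustment. With values scaled to the total of each library the called genes became 369 higher and 227 lower. The number of called genes was 471 (3.02%) without the AA rat 4107 and 1074 (6.89%) without the ADQ rat 4004, again with 0 genes past the adjusted threshold in either fit.

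**Figure D1:**
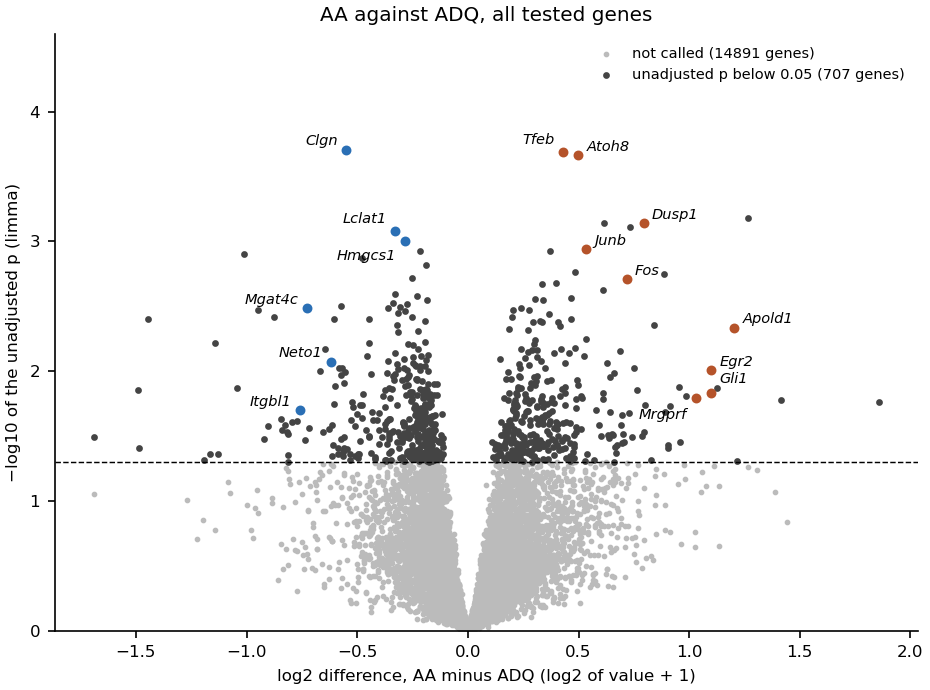
Each point is 1 of 15598 genes, with the log2 difference of AA minus ADQ on the x axis and the negative log10 of limma's unadjusted p on the y axis. The dashed line marks p = 0.05. The 707 called genes lie above it, on both sides of 0, and the labeled genes are described in the text.

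The tissue and the libraries were checked first. The markers of dentate granule cells had a mean log2(value + 1) of 8.54 to 10.3 in AA and 9.68 to 10.2 in ADQ, so the defining markers of the dissected region were present in every rat. The neighboring CA1 field was also there, in unequal amounts. Its 6 tested markers ranged from 6.92 to 11.9 in AA and from 6.94 to 9.88 in ADQ. The rat 4107, in AA, had the highest CA1 level and the lowest granule cell level, and the AA rat 3996 had the second highest CA1 level at 10.9. All 6 CA1 markers were higher in AA, by a median log2 of 0.49, and 0 of them were called. All 9 tested granule cell markers were lower in AA, with a median log2 of -0.14 and 0 called. Their median was -0.02 without 4107, and -0.01 without 3988, 3996 and 4107. Of 8 tested genes on the list of CA3 pyramidal and mossy cell markers, 2 were higher in AA and 1 lower. This is 37.5% of a short list, against 4.53% of all genes. The higher were Csf2rb (log2 0.50, p = 0.0129) and Rgs14 (log2 0.32, p = 0.0351), and the lower was Cpne4 (log2 -0.61, p = 0.0369). Rgs14 was highest in 4107, at 3414.5, against at most 2203 in any other rat compared. The median log2 of the list was 0.18. Without 3988, 3996 and 4107 it was -0.07, with 2 of the 8 above 0. The markers of oligodendrocytes were highest in the 2 rats with the highest CA1 levels, at 12.4 in 3996 and 12.3 in 4107, against at most 11.5 in ADQ. In whole tissue, fewer cells of a type and less RNA per cell cannot be told apart. Total value, estimated depth, the share of the most abundant gene and the number of genes above 0 did not separate the groups (two-sided permutation tests of 4 measures, smallest p = 0.518, each adjusted p = 0.962). The rats fall into 2 runs of rat numbers, to 4011 and above it, with 5 AA and 5 ADQ rats in the first and 6 and 6 in the second. The labels name no batch for them, and values within each are given where they matter.

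Among the pathway lists, immediate early genes had the largest share of called members. Of 39 tested, 9 were higher in AA and 1 lower, which is 25.6% against 4.53% of all genes. The median log2 difference of the list was 0.16, against -0.0031 over all genes tested, and 30 of the 39 members lay above 0. The 9 higher genes were Dusp1, Junb, Fos, Egr2, Nr4a1, Arc, Npas4, Atf3 and Per1.

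Dusp1 encodes a nuclear phosphatase that switches off MAP kinases after a stimulus. Its normalized values ran from 208 to 689.8 in AA (median 343) and 116 to 603 in ADQ (median 206). All 11 AA rats lay above the ADQ median, and 2 ADQ rats lay above the AA median. The difference was log2 0.79 ± 0.22 (SE), p = 0.000721, a 1.73-fold higher level in AA. In AV the values ran from 171 to 474 with a median of 335, a median close to that of AA and above that of ADQ.

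Fos, a subunit of the AP-1 transcription factor, had values of 76 to 247 in AA (median 135) and 54.1 to 228 in ADQ (median 71.7). Here too every AA rat exceeded the ADQ median (log2 0.72 ± 0.22 (SE), p = 0.00196). Junb, the partner of Fos in AP-1, ran from 436 to 1180.1 in AA (median 706) and 318 to 1064 in ADQ (median 466), and 9 of 11 AA rats were above the ADQ median (log2 0.53 ± 0.15 (SE), p = 0.00115). The AV medians were 111 for Fos and 611 for Junb.

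Egr2, a zinc finger factor of the same response, was a low gene with a wide spread, at 8.15 to 105 in AA (median 34.1) and 4.84 to 70.3 in ADQ (median 8.34). In 10 of 11 AA rats it was above the ADQ median, and the difference was log2 1.10 ± 0.41 (SE), p = 0.00982. Nr4a1, an orphan nuclear receptor induced by activity and stress, had values of 268 to 1710.0 in AA (median 571) and 189 to 1150.4 in ADQ (median 385) (log2 0.75 ± 0.28 (SE), p = 0.00947). Arc, whose protein moves AMPA receptors out of synapses, had values of 823 to 4261 in AA (median 1625) and 608 to 2954 in ADQ (median 1090.1) (log2 0.64 ± 0.24 (SE), p = 0.011). For Nr4a1 and Arc, 10 of 11 AA rats exceeded the ADQ median.

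Npas4, a factor that responds to calcium entry in neurons, ran from 35.8 to 143 in AA (median 62.5) and 24.6 to 181 in ADQ (median 40.7) (log2 0.69, p = 0.0259). Its highest rat was in ADQ. Atf3, a stress-induced factor, was near the lower limit of the table at 4.15 to 27.1 in AA (median 10.9) and 1.61 to 20.7 in ADQ (median 6.15) (log2 0.70, p = 0.0303). Npas4 lost its call without 1 of 4 rats in turn and Atf3 without 1 of 5, while the other 7 genes kept theirs without any 1 of the 22 rats.

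Not every early gene was higher in AA. Ptgs2, the inducible cyclooxygenase of granule cells, was the 1 called member that was lower, with values of 339 to 1212 in AA (median 855) and 897 to 1285 in ADQ (median 1114) (log2 -0.45 ± 0.16 (SE), p = 0.00611). Its lowest rats, 4107 and 3996, were those with the most CA1 marker RNA, and without 3988, 3996 and 4107 the difference was -0.17 (p = 0.175). Bdnf, a growth factor made by granule cells, stood at log2 -0.33, p = 0.0567. Fosb (log2 0.03, p = 0.768), Nr4a3 (log2 -0.14, p = 0.389) and Egr1 (log2 0.30, p = 0.0919) were not called.

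The early gene difference was larger among the rats with numbers above 4011. Within these 6 AA and 6 ADQ rats, 12 members were called higher and 0 lower, with a median log2 of 0.30 (4.15% of all genes were called there). Among the 5 and 5 rats with numbers to 4011, 0 members were called higher and 1 lower, with a median of 0.06 (5.98% of all genes called). The difference between the runs was tested gene by gene as an interaction, and 0 genes passed the adjusted threshold (881 at an unadjusted p below 0.05, smallest adjusted p = 0.0783). For Dusp1 the log2 difference was 1.19 above 4011 and 0.32 to 4011 (interaction p = 0.0375, adjusted p = 0.851), and for Fos 1.08 and 0.28 (interaction p = 0.0614). Leaving out the ADQ rat 4004, which had the highest ADQ level of each of the 9 genes, raised the number of members called higher to 15 (6.89% of all genes called). Without the AA rats 3988, 3996 and 4107 it was 12 (3.13% of all genes called), and with the CA1 and choroid plexus levels as covariates 8 (3.19%). Without the AA rat 4107 alone it was 8 (3.02%).

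**Figure D2:**
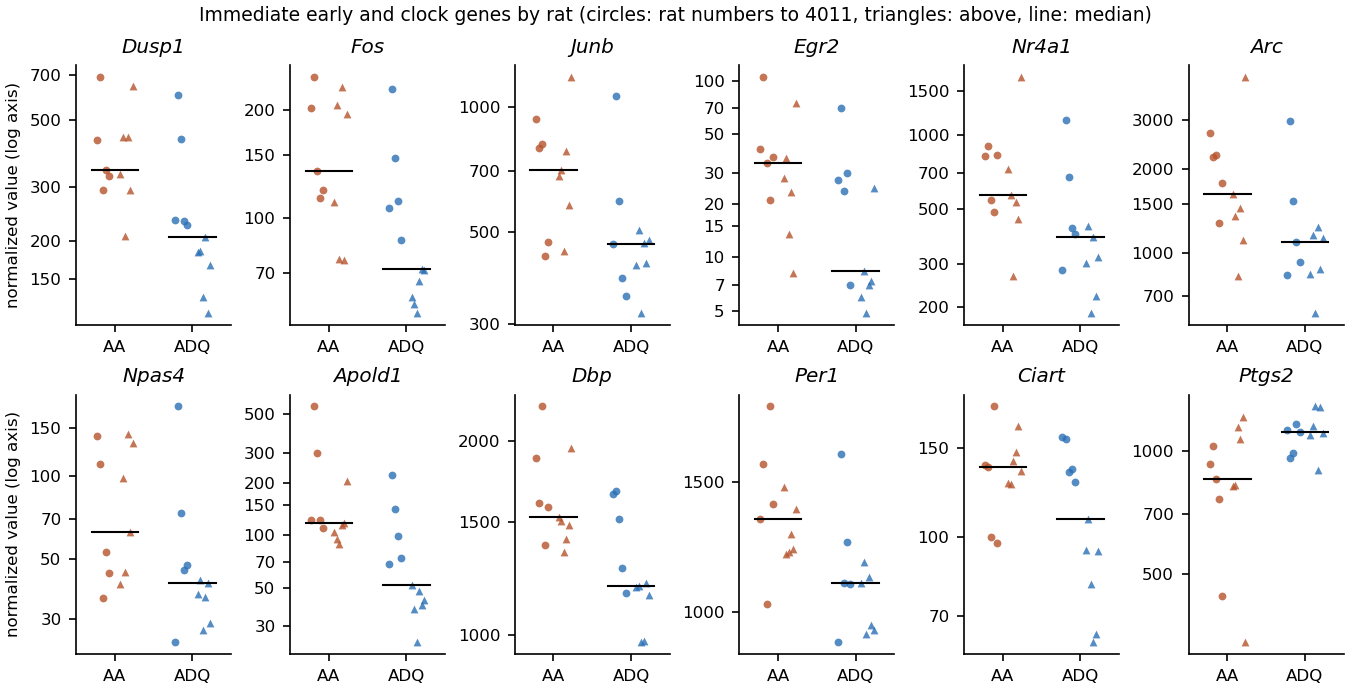
Normalized value in each rat, on a log axis, for 8 genes of early or stress responses, 3 clock genes and Ptgs2. Circles are rats with numbers to 4011, triangles those above, and lines the group medians. In Dusp1, Fos and Apold1 the 6 ADQ triangles lie at the bottom of the panel.

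The stretch before the start site of some of these genes holds known control motifs. RefSeq (GRCr8) gave 250 bases upstream of the start for 6 of the 9 higher early genes, read along the gene. The sequences of Dusp1 and Egr2 are shown because each holds the motif for which the class is known, with the motifs in capitals. The cyclic AMP response element TGACGTCA was in 1 of the 6, Dusp1, beginning 124 bases before the start, and it occurs in 1.7% of all 27457 such windows, searched on both strands. The serum response element (CArG box) was in 1 of the 6, Egr2, 83 bases before the start, and in 1.5% of all windows. Dusp1 also held 1 E-box (CACGTG), the motif of clock factors, at 107 bases. The windows lie at chr10:17184603-17184852 on the plus strand for Dusp1 and chr20:21054442-21054691 on the minus strand for Egr2.
Dusp1: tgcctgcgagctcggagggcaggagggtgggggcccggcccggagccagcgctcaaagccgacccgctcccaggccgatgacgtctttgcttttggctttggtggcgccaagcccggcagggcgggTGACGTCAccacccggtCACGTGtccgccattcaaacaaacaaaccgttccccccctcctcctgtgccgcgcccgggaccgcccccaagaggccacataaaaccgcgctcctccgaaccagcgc
Egr2: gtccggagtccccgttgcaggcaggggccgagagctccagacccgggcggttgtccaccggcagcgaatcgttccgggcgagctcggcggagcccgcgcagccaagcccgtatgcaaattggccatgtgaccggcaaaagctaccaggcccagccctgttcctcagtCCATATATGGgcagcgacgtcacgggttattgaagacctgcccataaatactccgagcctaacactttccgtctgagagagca

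Genes of the circadian clock were also called in 1 direction. The clock is a loop in which CLOCK and BMAL1 activate the Per, Cry, Dbp and Bhlhe genes through E-boxes, and the PER and CRY proteins repress them in turn. Of 24 tested clock genes 5 were higher in AA and 0 lower (20.8%, against 2.13% of all genes called higher), with a median log2 of 0.11. Dbp, an output factor of the loop, had values of 1344 to 2269 in AA (median 1525) and 974 to 1676 in ADQ (median 1189.7). All 11 AA rats exceeded the ADQ median (log2 0.37 ± 0.12 (SE), p = 0.00365). Per1, which is both a clock gene and an early gene, ran from 1025 to 1898 in AA (median 1334) and 910.5 to 1637 in ADQ (median 1094) (log2 0.30 ± 0.10 (SE), p = 0.00617).

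Ciart, a repressor of the loop, differed by log2 0.34 ± 0.15 (SE), p = 0.0226, Bhlhe41 by log2 0.22, p = 0.0443 and Cry1 by log2 0.19, p = 0.0356. Ciart was higher in AA among the rats above 4011 (log2 0.76) and stood at -0.16 among those to 4011 (interaction p = 0.000571, adjusted p = 0.851). The core genes Clock (log2 -0.09, p = 0.27), Arntl, the gene of BMAL1 (log2 -0.01, p = 0.881), Per2 (log2 0.14, p = 0.326) and Nr1d1 (log2 0.20, p = 0.057) were not called. Within the run to 4011, 0 clock genes were called (5.98% of all genes called there). Within that above it 3 were, all higher (4.15% of all genes). The number called higher was 3 without 4107, and 3 without 3988, 3996 and 4107. With the CA1 and choroid plexus levels as covariates it was also 3. Without the ADQ rat 4004, 5 were called higher and 1 lower. Times of collection are not given in the labels, so their part in the difference was not tested.

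E-boxes were found before the start of 2 of the 4 matched clock genes that were higher, against 5.79% of all windows. Ciart holds 3, at 93, 35 and 21 bases, in the window chr2:186112247-186112496 on the minus strand, and Bhlhe41 holds 1, at 48 bases, in chr4:180569356-180569605 on the minus strand. Both are shown with the E-boxes in capitals.
Ciart: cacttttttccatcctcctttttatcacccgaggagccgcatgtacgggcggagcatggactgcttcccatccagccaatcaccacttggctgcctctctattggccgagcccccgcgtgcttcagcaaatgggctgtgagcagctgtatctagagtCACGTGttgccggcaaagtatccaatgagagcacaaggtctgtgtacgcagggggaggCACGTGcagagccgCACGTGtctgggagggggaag
Bhlhe41: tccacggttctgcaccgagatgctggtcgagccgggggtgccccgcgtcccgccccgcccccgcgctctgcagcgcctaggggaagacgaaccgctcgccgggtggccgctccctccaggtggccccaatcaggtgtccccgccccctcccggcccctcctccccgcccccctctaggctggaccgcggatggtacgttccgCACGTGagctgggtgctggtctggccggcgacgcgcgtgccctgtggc

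Over all rats, chaperone genes went the other way, with calls that differed between the runs of rat numbers. Heat shock proteins and the TRiC complex fold new and damaged proteins, and the DNAJ proteins bring substrates to HSP70. Of 56 tested, 6 were lower in AA and 0 higher (10.7%, against 2.4% of all genes called lower), and 43 lay below 0, with a median log2 of -0.10. Of the 6, 4 were DNAJ genes of the A class. Dnaja4 ran from 793 to 1202 in AA (median 943) and 943 to 1555 in ADQ (median 1085) (log2 -0.23 ± 0.09 (SE), p = 0.0152). The ranges overlapped, and the AA median lay at the lowest ADQ value. Dnaja1 ran from 1161 to 1953 in AA (median 1639) and 1541 to 1903 in ADQ (median 1792) (log2 -0.19 ± 0.08 (SE), p = 0.0235).

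Dnaja2 (log2 -0.21, p = 0.0262) and Dnaja3 (log2 -0.13, p = 0.042) were lower too. So were Fkbp5, a co-chaperone of the glucocorticoid receptor (log2 -0.18, p = 0.0243), and Cct6a, a TRiC subunit (log2 -0.15, p = 0.0477). The heat-inducible Hspa1b stood at log2 -0.42, p = 0.107, Hsph1 at log2 -0.14, p = 0.106 and Hsp90aa1 at log2 -0.16, p = 0.168. The number of chaperones called lower was 2 without the AA rats 3988, 3996 and 4107 and 2 with scaling to the total, and 1 with the CA1 and choroid plexus levels as covariates. It was 10 without the ADQ rat 4004. Among the rats to 4011, 3 chaperones were called higher and 5 lower (5.98% of all genes called). Among those above 4011, 0 were called higher and 1 lower (4.15% of all genes called). The median log2 was -0.12 to 4011 and -0.07 above it, with 44 and 40 of the 56 below 0. A heat shock element, GAANNTTC, was in the window of 1 of the 5 matched genes, Dnaja1, 181 bases before the start, and in 7.02% of all windows. The Dnaja1 window, chr5:60638154-60638403 on the plus strand, is shown as the 1 with a match.
Dnaja1: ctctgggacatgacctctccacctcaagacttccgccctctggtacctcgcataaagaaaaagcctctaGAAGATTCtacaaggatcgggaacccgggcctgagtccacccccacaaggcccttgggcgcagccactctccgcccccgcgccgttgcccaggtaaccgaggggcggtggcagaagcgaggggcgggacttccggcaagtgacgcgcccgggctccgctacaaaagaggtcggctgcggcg

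**Figure D3:**
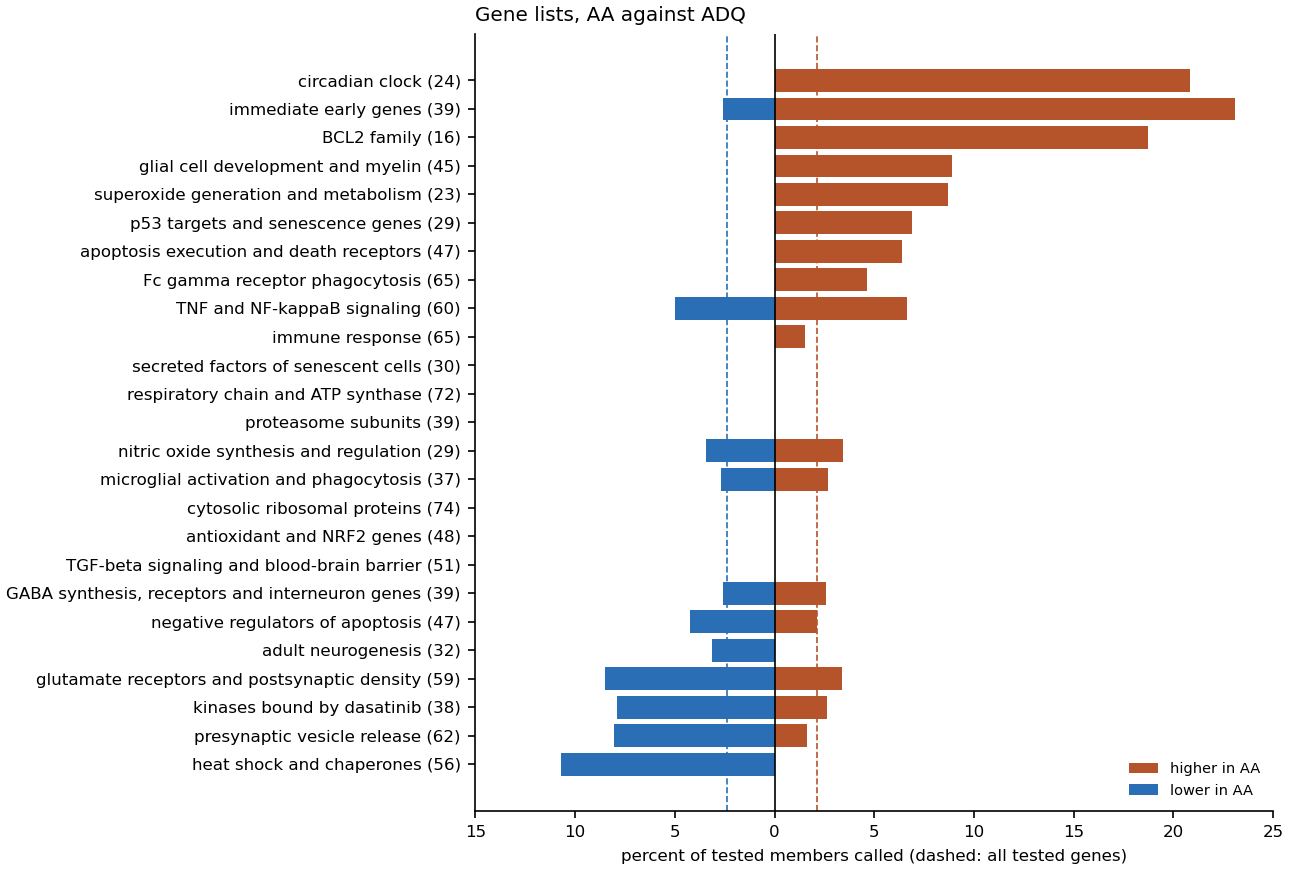
Bars give the percent of tested members, with their number in brackets after the list, that were called higher (right) or lower (left) in AA. Dashed lines mark the shares of all tested genes, 2.13% and 2.4%. The clock, early and BCL2 family lists reach farthest to the right and the chaperones farthest to the left, and 6 lists have no called member.

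The targets of the drugs came next. Of 16 tested genes of the BCL2 family, 3 were higher in AA and 0 lower (18.8%, against 2.13% of all genes called higher), with a median log2 of -0.02. Among the survival proteins that ABT-263 binds, Bcl2l1, the gene of BCL-XL, had values of 935 to 1552 in AA (median 1193) and 824 to 1241 in ADQ (median 1061). The difference was log2 0.18 ± 0.08 (SE), p = 0.0289, and 9 of 11 AA rats exceeded the ADQ median. Bcl2 was low at 12.2 to 40.7 in AA (median 23.5) and 13.2 to 39.6 in ADQ (median 21.4) (log2 0.02 ± 0.19 (SE), p = 0.913), with a 95% interval from -0.37 to 0.41. Bcl2l2, the gene of BCL-W, was the most abundant of them at 2063 to 2499 in AA (median 2205) and 2024 to 2508 in ADQ (median 2299) (log2 -0.04 ± 0.05 (SE), p = 0.355, 95% interval from -0.13 to 0.05), an interval that leaves room for little difference.

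The effectors and their activators differed in the same unequal way. Bak1, an effector that forms pores, ran from 144 to 256 in AA (median 201) and 118 to 251 in ADQ (median 173) (log2 0.29 ± 0.12 (SE), p = 0.0167), while the other effector Bax stood at log2 -0.02, p = 0.897. Bmf, a BH3-only protein released from the cytoskeleton, ran from 31.1 to 83.3 in AA (median 50.5) and 24.6 to 58 in ADQ (median 37.1) (log2 0.40 ± 0.17 (SE), p = 0.0248). Neither group was apart from the other in any of them. The 3 calls were absent from the rats above 4011, where 0 members of the family were called, and from the fit without 3988, 3996 and 4107, and 1 was left without 4107 alone. Over the 47 genes of apoptosis execution 3 were higher and 0 lower, with a median log2 of 0.05. This share, 6.38%, was near the 4.53% of all genes called. The 3 were Bak1, Bmf and the receptor adaptor Traf2 (log2 0.18, p = 0.0456).

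Among negative regulators of apoptosis 1 of 47 was called higher, Bcl2l1, and 2 lower, Birc5 (log2 -0.49, p = 0.0433) and Faim. This share, 6.38%, was also near the 4.53% of all genes called. Faim, an inhibitor of death receptor signaling in neurons, cannot be read as lower. Its symbol is carried by 2 identifiers that moved in opposite directions, the first at 15.8 to 125 in AA (median 46.8) and 52.1 to 128 in ADQ (median 80.3) (log2 -0.77, p = 0.0244) and the second at 27.3 to 90.7 in AA (median 57.7) and 9.34 to 70.1 in ADQ (median 36.8) (log2 0.66, p = 0.0311). Summed over both, Faim had a median of 114 in AA and 124 in ADQ (log2 -0.16 ± 0.20 (SE), p = 0.413, rows summed per symbol). How reads were divided between the identifiers was not tested. Coa8, a factor of cytochrome oxidase, showed the same: 1 identifier stood at log2 -1.69, p = 0.0324, the largest lower difference by the naming rule, and the sum of both at -0.06 (p = 0.668).

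Of 38 tested genes for kinases that dasatinib binds, 1 was higher in AA and 3 lower (10.5%, against 4.53% of all genes), and 0 were called among the rats above 4011. All 3 lower genes encode ephrin receptors of the A class, which guide axons and shape dendritic spines. Epha5 ran from 1003 to 1509 in AA (median 1123) and 1079 to 1936 in ADQ (median 1444), and 10 of 11 AA rats lay below the ADQ median (log2 -0.34 ± 0.11 (SE), p = 0.00298). Epha4, the most abundant of them, ran from 3647 to 7088 in AA (median 5501) and 5408 to 7796 in ADQ (median 6796) (log2 -0.28 ± 0.11 (SE), p = 0.0115), and Epha3 stood at log2 -0.36, p = 0.0235. Without 3988, 3996 and 4107, Epha4 stood at -0.13 (p = 0.211) and Epha3 at -0.18 (p = 0.255). Limk2, a kinase that stabilizes actin filaments, was higher at 1148 to 1329 in AA (median 1231) and 921 to 1195 in ADQ (median 1122) (log2 0.15 ± 0.05 (SE), p = 0.00807).

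The kinases best known as dasatinib targets were not called, and their intervals differ in width. Src ran from 2346 to 3838 in AA (median 3353) and 2705 to 4652 in ADQ (median 3367) (log2 -0.05 ± 0.09 (SE), p = 0.567, 95% interval from -0.24 to 0.13). Fyn, the SRC kinase of synapses, stood at log2 -0.04, p = 0.483, with an interval from -0.14 to 0.07. Abl1 varied more, from 23.3 to 285 over the AA rats, and its interval of -0.55 to 1.06 does not exclude a 2-fold difference. Abl2 (log2 -0.19, p = 0.161), Lyn (log2 0.14, p = 0.41), Yes1 (log2 -0.12, p = 0.489), Ephb2 (log2 -0.01, p = 0.884), Pdgfra (log2 -0.14, p = 0.253), Kit (log2 -0.11, p = 0.153) and Csf1r, the receptor on which microglia depend (log2 0.10, p = 0.426), were not called.

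**Figure D4:**
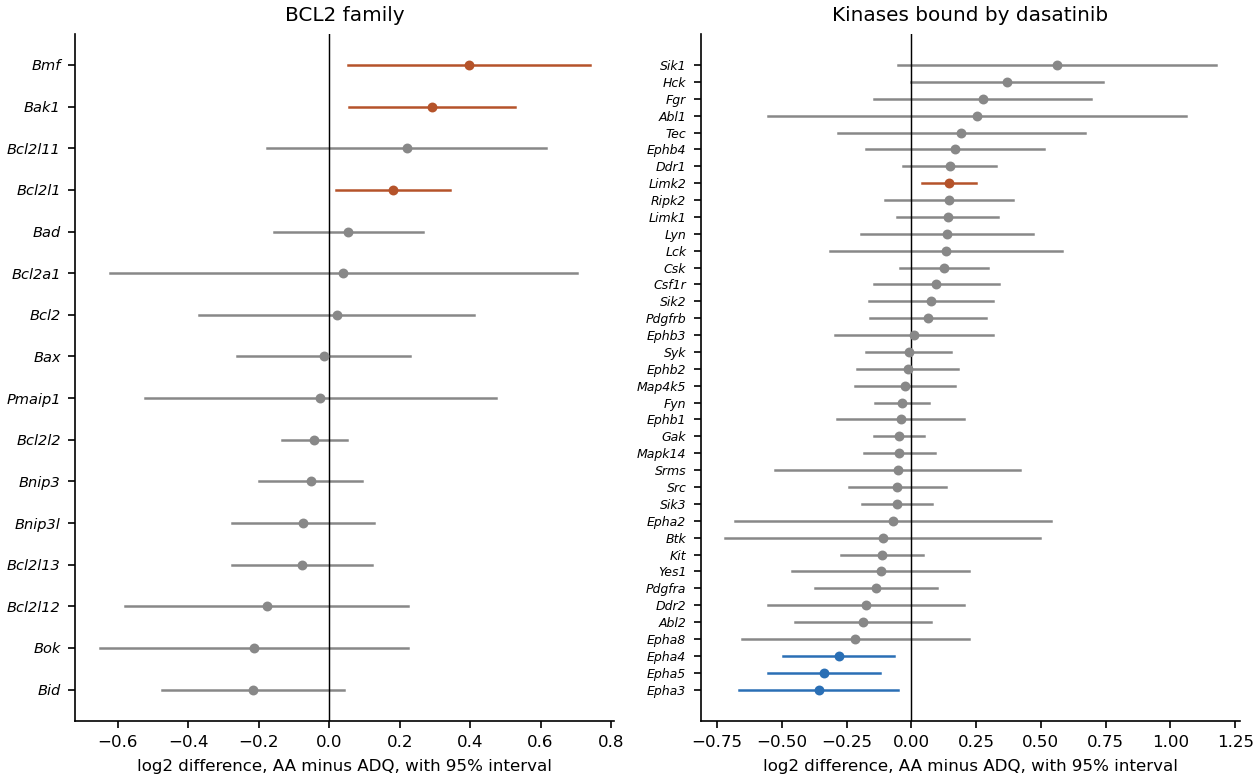
The log2 difference of AA minus ADQ (x axis) with its 95% interval for each tested gene of the BCL2 family (16 genes) and of the kinases bound by dasatinib (38 genes). Called genes are colored, 3 of the family to the right of 0, and 3 ephrin receptor genes to the left and Limk2 to the right among the kinases.

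Few senescence genes were called. The cell cycle inhibitor Cdkn1a, the gene of p21, had values of 32.6 to 121 in AA (median 60.8) and 33.3 to 88.9 in ADQ (median 76.8) (log2 -0.05 ± 0.24 (SE), p = 0.843, 95% interval from -0.54 to 0.44). Cdkn2a, the gene of p16, was below the minimum mean for testing, with values of 0 to 6.02 in AA (median 3.74) and 0.577 to 7.01 in ADQ (median 2.09). Of 29 p53 targets and senescence genes, 2 were higher in AA and 0 lower (6.9%, against 4.53% of all genes). Phlda3, a p53 target that restrains AKT, ran from 87.2 to 196 in AA (median 144) and 57.6 to 143 in ADQ (median 94.1) (log2 0.44 ± 0.16 (SE), p = 0.00858), and the G1 cyclin Ccnd1 stood at log2 0.28, p = 0.0176. Of 30 tested secreted factors of senescent cells 0 were called, with Csf1 nearest at log2 0.13, p = 0.0627 and Mmp14 at log2 -0.30, p = 0.106. For 24 of the 30 the 95% interval lay within 1 log2 unit. Il6 was listed at 0 in most rats and was not tested.

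Immune genes had a median slightly above 0, with few calls. The median log2 of the 65 tested immune response genes was 0.09 and 48 were above 0, while 1 was called (1.54%, against 4.53% of all genes). That was Irf7, the master factor of the interferon response, at 86.1 to 238 in AA (median 120.3) and 59.2 to 147 in ADQ (median 85.4) (log2 0.49 ± 0.19 (SE), p = 0.0117), with all 11 AA rats above the ADQ median. Cxcl10, an interferon-induced chemokine, stood at log2 0.85, p = 0.108. Among 37 genes of microglial activation and phagocytosis 1 was higher and 1 lower (5.41%, near the 4.53% of all genes). Tmem119, a marker of resident microglia, ran from 423 to 634 in AA (median 494) and 287 to 505 in ADQ (median 421) (log2 0.30 ± 0.10 (SE), p = 0.00574), and 5 AA rats were above every ADQ rat. Lpl, a lipase that activated microglia and neurons both make, was lower (log2 -0.57 ± 0.22 (SE), p = 0.0107), with a log2 of -0.35 (p = 0.123) when 3988, 3996 and 4107 were left out. The markers of microglia as a list had a median log2 of 0.10, and all 9 were above 0.

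Signaling lists gave mixed counts. Of 60 genes of TNF and NF-kappaB signaling 4 were higher and 3 lower (11.7%, against 4.53% of all genes). The higher were Fos, Junb, Traf2 and Nfkbia (log2 0.30, p = 0.0304), the inhibitor that NF-kappaB induces. The lower were the kinases Map2k4 (log2 -0.24, p = 0.0191) and Mapk10 (log2 -0.15, p = 0.026) and Ptgs2. Of 65 genes of Fc gamma receptor phagocytosis 3 were higher, a share of 4.62% close to the 4.53% of all genes called, with the smallest p for Marcksl1, an actin-binding protein of growing neurites (log2 0.42 ± 0.14 (SE), p = 0.00448). Of 23 genes of superoxide metabolism 2 were higher, Prkcd (log2 0.51, p = 0.0155) and Cyba, a subunit of the NADPH oxidase (log2 0.36, p = 0.0406), a share of 8.7%. Prkcd was at 406 in 3988 and at most 210.2 in any other of the 22 rats, and it stood at log2 0.35 (p = 0.0567) without that rat, while Cyba lost its call without 1 of 11 rats in turn. Without 3988, 3996 and 4107, 0 of the 23 were called. Of 29 genes of nitric oxide synthesis 1 was higher, Klf2, and 1 lower, Ptgs2, a share of 6.9%. Klf2, a factor induced by blood flow in endothelium, was at 21 to 128 in AA (median 53.8) and 12.3 to 71.3 in ADQ (median 31.8) (log2 0.69 ± 0.24 (SE), p = 0.00701).

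More synaptic genes were called lower than higher in AA, but not in both runs of rat numbers. Of 62 genes of presynaptic vesicle release 5 were lower and 1 higher (9.68%, against 4.53% of all genes), with a median log2 of -0.11 and 41 below 0. Syt1, the calcium sensor of fast release, ran from 11445 to 16510.3 in AA (median 13195) and 13442 to 18713 in ADQ (median 15721) (log2 -0.21 ± 0.08 (SE), p = 0.00765). Rims1 (log2 -0.29, p = 0.0265), a scaffold of the active zone, Synj1 (log2 -0.17, p = 0.0389), Ppfia2 (log2 -0.23, p = 0.0401) and the fusion protein Snap25 (log2 -0.21, p = 0.0472) were lower, and Rab3b (log2 0.34, p = 0.0187) was higher. Among the rats to 4011, 5 presynaptic genes were called higher and 2 lower (5.98% of all genes called). Among those above 4011, 0 were called higher and 5 lower (4.15% of all genes called). Without 4107 alone, 2 presynaptic genes were called lower and 0 higher, and the same counts held without 3988, 3996 and 4107. In that last fit the median log2 was -0.07 and 43 of the 62 lay below 0.

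Of 59 genes of glutamate receptors and the postsynaptic density 5 were lower and 2 higher (11.9%, against 4.53% of all genes). Neto1, an auxiliary subunit of kainate receptors, ran from 397 to 1628 in AA (median 1013) and 974 to 2156 in ADQ (median 1436) (log2 -0.62 ± 0.22 (SE), p = 0.00844), and Nlgn1, an adhesion protein of excitatory synapses, stood at log2 -0.25, p = 0.00772. Gria2, the subunit that makes AMPA receptors tight to calcium, stood at log2 -0.21, p = 0.0271, Grm7 at log2 -0.28, p = 0.0153 and Dlg3 at log2 -0.14, p = 0.0477. The 2 higher genes, Grm4 (log2 0.59, p = 0.0261) and Grin2c (log2 0.21, p = 0.0228), are known for the cerebellum, and Grm4 reached 1517 in the AA rat 3988 against at most 472 in any other of the 22 rats. Among the rats to 4011, 7 of the 59 were called higher and 2 lower (5.98% of all genes called), with a median log2 of 0.05 against -0.02 in all. Among those above 4011, 0 were called higher and 2 lower (4.15% of all genes called), with a median of -0.08. Without 3988, 3996 and 4107, 0 of the 59 were called in either direction, while the median log2 was -0.05 and 36 lay below 0. Of 39 GABA and interneuron genes 1 was called in each direction (5.13%), with a median log2 of 0.03, and the higher was Pvalb (log2 0.44, p = 0.0466), again highest in 3988 at 1110.2. Of 32 genes of adult neurogenesis 1 was called (3.1%), Elavl2, which was lower (log2 -0.34, p = 0.0137).

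The glial gene difference varied with the rats included. Of 45 genes of glial development and myelin 4 were higher in AA and 0 lower (8.89%, against 4.53% of all genes). They were the lineage factors Olig2 (log2 0.34, p = 0.0254), Nkx2-2 (log2 0.49, p = 0.0269), Nkx6-2 (log2 0.38, p = 0.0387) and Sox10 (log2 0.30, p = 0.0447). The median log2 was 0.12, and 36 were above 0. Without the AA rat 4107 the median was 0.06 with 0 called, and without 3988, 3996 and 4107 it was -0.02 with 0 called and 17 above 0. Among the rats to 4011 the list median was 0.22 with 40 above 0, and 2 genes were called higher and 0 lower. Above 4011 it was 0.03 with 26 above 0, and 1 gene was called in each direction. Nkx2-2 differed by 1.08 in the rats to 4011 and by -0.0024 in those above.

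In 5 lists 0 genes were called, and the intervals bound what was missed. These held 72 genes of the respiratory chain and ATP synthase, 74 of cytosolic ribosomal proteins, 39 of the proteasome, 48 of antioxidant and NRF2 responses and 51 of TGF-beta signaling and the blood-brain barrier, next to the 30 secreted factors above. The 95% interval lay within a 1.5-fold difference for 65, 47, 38, 47 and 42 of them in that order. Tgfb1 (log2 0.03, p = 0.849), the endothelial receptors Eng (log2 0.06, p = 0.704) and Acvrl1 (log2 0.12, p = 0.559), the tight junction gene Cldn5 (log2 0.22, p = 0.29) and the target gene Id1 (log2 0.29, p = 0.0966) stood close to 0 or had intervals that included it.

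Apart from the lists, the genes with the strongest evidence were few and of separate functions. Among the named genes Atoh8, a basic helix-loop-helix factor, came closest to separating the groups. Its values were 47.7 to 73.3 in AA (median 60.9) and 31.5 to 51.9 in ADQ (median 45.9). In 10 of 11 AA rats it was above the highest ADQ rat (log2 0.50 ± 0.12 (SE), p = 0.000215). The AV rats, at 36.8 to 83.0 with a median of 61.9, covered both groups. Tfeb, the factor that drives lysosomal genes, ran from 189 to 381 in AA (median 229) and 147 to 235 in ADQ (median 173), with all 11 AA rats above the ADQ median and 5 above the highest ADQ rat (log2 0.43 ± 0.11 (SE), p = 0.000205).

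On the lower side, Clgn, a chaperone of the endoplasmic reticulum, had the smallest p of all named genes, with values of 39.9 to 90 in AA (median 67.4) and 74.9 to 119.6 in ADQ (median 97.2) (log2 -0.55 ± 0.14 (SE), p = 0.000196). All 11 AA rats lay below the ADQ median, and the AV median of 70.6 was close to that of AA. Lclat1, an acyltransferase of cardiolipin (log2 -0.33 ± 0.09 (SE), p = 0.000829), and Jak1, the kinase of many cytokine receptors (log2 -0.22 ± 0.06 (SE), p = 0.00118), were lower in all 11 AA rats than the ADQ median. Hmgcs1, an early enzyme of cholesterol synthesis, ran from 1672 to 2296 in AA (median 1864) and 2026 to 2745 in ADQ (median 2212) (log2 -0.29 ± 0.08 (SE), p = 0.001). The unnamed locus LOC103689949 was higher in AA (log2 0.62 ± 0.17 (SE), p = 0.000726). All 7 kept an unadjusted p below 0.05 without any 1 of the 22 rats.

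Of the genes with the largest differences, Apold1, an early response gene of the endothelium, ran from 89.2 to 554 in AA (median 118) and 24.2 to 222 in ADQ (median 52.1) (log2 1.2 ± 0.40 (SE), p = 0.00461), and all 11 AA rats exceeded the ADQ median. Mgat4c, a glycosyltransferase of N-glycans, was lower in all 11 AA rats than the ADQ median (log2 -0.73 ± 0.23 (SE), p = 0.00326). Itgbl1, a secreted integrin-like protein (log2 -0.76 ± 0.31 (SE), p = 0.02), and the loci AABR07006025.1 (log2 -1.17, p = 0.0437) and AABR07013140.1 (log2 -0.84, p = 0.0284) followed. Without 3988, 3996 and 4107, Itgbl1 stood at -0.43 (p = 0.162), AABR07006025.1 at -1.08 (p = 0.0906) and AABR07013140.1 at -0.26 (p = 0.366). AABR07013140.1 was listed at 0 in 4107, and without that rat alone it stood at -0.45 (p = 0.109). AABR07006025.1 lost its call without 1 of 10 rats in turn. Gli1, the target of hedgehog signaling, was log2 1.10 ± 0.43 (SE), p = 0.0147, with 139 in its highest AA rat and a nearly equal median in both groups, 11.6 and 11.4, and without 3988, 3996 and 4107 it stood at 0.44 (p = 0.292). Mrgprf, an orphan receptor, was at 546 in the AA rat 3988 and at most 21.7 in the other 21 rats of the comparison (log2 1.03 ± 0.41 (SE), p = 0.0162), and without 3988, 3996 and 4107 its log2 difference was 0.53 (p = 0.0724).

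**Figure D5:**
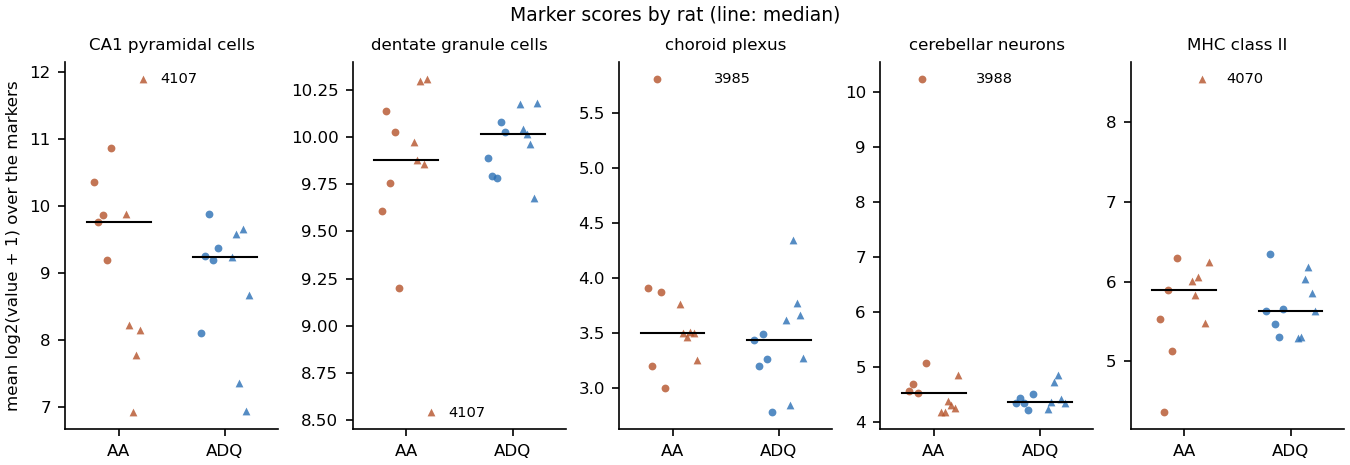
Mean log2(value + 1) over the markers of 5 lists in each rat, with circles for rats to 4011, triangles for those above and lines for medians. Among the AA and ADQ rats shown, the AA rat 4107 is highest for CA1 and lowest for granule cells. The rats 3985, 3988 and 4070, all in AA, each stand apart in 1 list. The cerebellar and MHC class II lists were put together after such values were seen.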

How the data were processed

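Per the labels and the methods of the study, RNA of the DG was poly(A)-selected and sequenced from 1 library per rat. The authors aligned the reads to rn6 with STAR 2.5.3a in Partek Flow and deposited signal values, estimated reads per row scaled by the median ratio. Low values of genes with 1 row were whole multiples of a step per rat for 79.2% to 84.2% of values (tolerance 0.05), so whole reads could not be recovered for nearly all genes, and no count model was used. The estimated depth was 11395700 to 21349600 reads in these 22 rats, which limits precision for low genes. Treatments were read by rat name from the authors' table of sample attributes, because the sample labels give only age. Each library is a separate rat.

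The 24694 rows were summed to 18347 gene identifiers, and 15598 with a mean of at least 5 over 44 rats were tested on log2(value + 1), a scale that understates differences of low genes. limma 3.58.1 (R 4.3.3, trended eBayes) was fitted to all 44 rats with AA minus ADQ as the contrast, two-sided, with Benjamini-Hochberg adjustment. The fit was tested on simulated data of independent genes, with 200 changed genes. Named genes were, at a mean of at least 20, the 6 largest differences and 4 smallest p in each direction, the 2 members with the smallest p of every list and a panel of drug targets and study genes. Other called list members are named as well, chosen after their values were seen. The result of 1 list member is not reported here. A symbol with several identifiers counted once in a list, at the one with the highest mean. The rats compared and the lists were chosen with earlier results of these data known, and so a list is described by counts with no test of its own. Promoter windows came from RefSeq (GRCr8), matched by symbol, with none for Fos, Arc, Atf3, Klf2, Cry1 and Dnaja2. Alternatives covered pseudocounts, filters, scaling, weights, covariates, rat number runs and each rat left out.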

Additional observations from a re-analysis of the deposited data

How the results depend on the processing

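In every alternative run, 0 genes passed the adjusted threshold for AA against ADQ, with a smallest adjusted p of 0.0877 with array weights and 0.26 without the ADQ rat 4004. The number of genes called was 707 and became 1584 with array weights (17 early genes called higher against 9). Leaving out 1 rat at a time gave 471 to 1074 called genes and 7 to 15 early genes called higher, with 0 genes after adjustment each time. Without the ADQ rat 4004 and the AA rat 4107 together, added after seeing the data, 766 were called, and without 3988, 3996 and 4107, also added, 488. Scaling to the total turned the called genes from 332 higher and 375 lower to 369 and 227. Within the rats to 4011, 0 early genes were called higher, and Ciart changed sign, from log2 0.34 to -0.16. Within those above 4011, Nkx2-2 went from 0.49 to -0.0024 and Grin2c from 0.21 to -0.0012. With CA1 and choroid plexus levels as covariates Ccn3 went from 0.15 to -0.39, and without 3988, 3996 and 4107 C1ql2 went from -0.11 to 0.29. With upper quartile scaling, 1 gene, Klhdc7a, passed the adjusted threshold for a difference between the rat number runs (adjusted p = 0.0481), against 0 as reported. The causes were not tested. The 86 called genes named or examined had 3180 alternative values, of which 2656 stayed past the threshold with the same sign, 521 did not and 3 had the other sign. No paired analysis was possible because the groups share no replicate numbers. Genes with low values have wide intervals at this depth.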

Other observations

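Single rats of the AA group carried genes far above every other rat of the comparison. Only the 22 rats of AA and ADQ were searched. Among genes with a mean of at least 20, 51 were over 5 times the median of the 22 rats and over 2.5 times the next rat, and all 51 peaks were in AA rats: 32 in 3988, 7 in 4107, 5 in 4070, 4 in 3985 and 3 in 3996. In 3988, Fat2, a cadherin of cerebellar granule cells, was at 6184 against 10.9 in the next rat. Gabra6, the cerebellar GABA receptor subunit, was at 2538 against 4.2, and Cbln3, a synapse organizer of the same cells, at 2164 against 13.1. Cbln1, Ca8, Zic1 and Slc1a6, the Purkinje cell glutamate transporter, were highest there as well. A list of cerebellar genes put together after these values were seen had a mean log2(value + 1) of 10.2 in 3988 and at most 5.07 in the other 21 rats. Of the 32 genes 7 were called for AA against ADQ, Mrgprf, Rgl3, Zic4, Zic2, Grm4, Cdh15 and Nrep, and the granule cell markers of 3988 were at 10.0, within the range of ADQ.

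In 4070 the MHC class II genes stood apart, with Cd74, the invariant chain, at 1691 against 328 in the next rat, RT1-Da at 383 against 69.9 and RT1-Bb at 381 against 50.1. In 3985 Ttr, the thyroxine carrier of the choroid plexus, was at 835 against 312. In 4107 Mpped1 was at 8847 against 3445 and Met, a receptor of cortical and CA1 neurons, at 378 against 127. In 3996 the non-coding RNAs Rn7sl1 and 7SK were at 3214 and 1601, against 511 and 331. High list levels were also present in vehicle rats, which the search left out. The highest AV level was 9.32 for MHC class II, against 8.54 in 4070. For choroid plexus markers it was 6.24, against 5.81 in 3985, and for CA1 markers 11.1, against 11.9 in 4107. The cerebellar list reached at most 4.71 in AV. The source of these values was not tested.

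Lists chosen after the called genes were seen are given as counts. Because of that choice, a share above that of all genes is not a result about such a list. The shares called were 6.67% for lysosome and autophagy, 4.17% for cholesterol synthesis and 25% for glucocorticoid receptor targets, against 4.53% of all genes. Although Tfeb was higher in AA, of 45 tested lysosome and autophagy genes 1 was higher, Tfeb itself, and 2 were lower, the proton pump subunits Atp6v1a (log2 -0.15, p = 0.0217) and Atp6v1b2 (log2 -0.17, p = 0.0327), with a median log2 of -0.0022. Of 24 cholesterol synthesis genes Hmgcs1 was the 1 called, and 19 of 24 lay below 0, with a median log2 of -0.08. Of 24 glucocorticoid receptor targets 5 were higher, Dusp1, Per1, Nfkbia, Ddit4 (log2 0.24, p = 0.0386) and Bcl6 (log2 0.23, p = 0.0393), and Fkbp5 was lower, with a median log2 of 0.05.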
